A study of Mus musculus with 8 samples.

Results

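The genes described here are 10 transcripts of enteroendocrine cells, the hormone-secreting cells scattered through the gut epithelium: Gcg, Pyy, Nts, Sct, Cck, Chga, Chgb, Tph1, Sst and Tac1. They were found by symbol among 41128 genes of the deposited table. Of the 10, 9 passed the filter on low values (at least 1 RPKM in at least 3 libraries). RPKM is a read density scaled by gene length and library size. The deposited values name no unit and are called RPKM here, although they had also been normalized in sets of libraries. The tissue was unseparated distal ileum within 6 cm of the ileocecal valve, taken from 8 FVB mice, 1 library per mouse. The mice were 4 sex-matched littermate couples, each with a Cftr -/- (KO) animal carrying the null allele Cftrtm1Cam and a Cftr N/N (WT) animal. Cftr, the gene mutated in cystic fibrosis, codes for an anion channel of epithelia. The animals' age is not given in the sources used here. KO and WT groups without antibiotics had 3 mice each, and 1 KO and 1 WT mouse drank water with 2 antibiotics, 0.5 g/L of metronidazole together with ciprofloxacin at 0.3 g/L. Of the untreated couples, numbered 1 to 3, couple 2 was male. Couples 1 and 3 and the antibiotic couple were female. All 8 mice were reared on a low-fibre diet with an osmotic laxative, which was stopped more than 4 days before sampling.

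Enteroendocrine cells store peptides or serotonin in dense granules and release them in response to nutrients, bile acids and microbial products. In the distal small intestine L cells make proglucagon and peptide YY, which slow transit and restrain appetite, and N cells make neurotensin. I cells make cholecystokinin and S cells secretin, which act on the gallbladder and pancreas and are known best from the duodenum. D cells make somatostatin, a general inhibitor of secretion, and enterochromaffin cells make serotonin, many of them together with tachykinins. Several of these peptides are also made by enteric neurons.

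Every KO library had less Cftr than the WT littermate's: 3.74, 2.65 and 3.17 RPKM in untreated KO ileum of couples 1, 2 and 3, against 12.4, 9.94 and 10.1 RPKM in WT ileum. In the antibiotic couple it was 4.94 RPKM in KO and 13.8 RPKM in WT ileum. Library sums ran from 346794 to 397082 RPKM, with 3 separate sets of values: couples 1 and 2, couple 3, and the antibiotic couple. Genes above 0 numbered 20896 in each library of couples 1 and 2, against 11931 and 11912 in KO and WT of couple 3 and 13749 and 13672 in KO and WT of the antibiotic couple, so a gene listed at 0 in the smaller sets may be a low one. A level compared between couples can therefore reflect the set, and read depth is unknown. Antibiotic treatment coincided with 1 litter and 1 of these sets, so the 3 cannot be told apart. RPKM in turn fell with exon length in each library (slopes of log2 value on log2 length from -0.544 to -0.362), so levels of genes of different length are compared only roughly.

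Tac1 rose in untreated KO ileum, the 1 member to pass the test (limma without the couple block, adjusted p under 0.05). Tac1 (chromosome 6, 7554879 to 7565834, plus strand, GRCm38) encodes the precursor of substance P and neurokinin A, which stimulate gut muscle and secretion. Its level was 4.40, 4.25 and 5.10 RPKM in KO ileum of couples 1, 2 and 3, against 2.25, 1.19 and 1.27 RPKM in WT ileum. Each untreated KO library lay above each untreated WT library, a separation in that direction that 10.3% of 11911 tested genes had. Tac1 averaged 4.58 ± 0.455 RPKM in KO and 1.57 ± 0.592 RPKM in WT ileum (SD, n = 3 each). The log2 change was 1.14 with an SE of 0.19, and the limma adjusted p was 0.0327. Among all tested genes 1.07% were called higher and 0.965% lower in KO, and among the members 1 was higher and 0 were lower. Separation of all KO below all WT libraries was seen for 12.1% of genes and for 0 members.

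The Tac1 call was sensitive to single libraries. It was kept without WT of couple 1 (limma adjusted p = 0.0287) and with the couple as a block (0.0215). It missed the threshold without KO of couple 1 (0.0967), KO of couple 2 (0.078), KO of couple 3 (0.115), WT of couple 2 (0.0914) or WT of couple 3 (0.143), with log2 changes of 1.04 to 1.18. Over all 4 couples with the block it was 0.79 (SE 0.29, limma adjusted p = 0.163). Under antibiotics the order of the littermates was the other way: Tac1 was 1.15 RPKM in KO and 1.57 RPKM in WT ileum, and this KO level lay below those of all untreated KO libraries. The genotype difference under antibiotics was 1.40 log2 units below the untreated one (-1.40, SE 0.39, limma unadjusted p = 0.00795, adjusted p = 0.806), which was not called. Of 11520 genes in that contrast 0 (0%) were called by limma, with or without the couple block, and 483 had an unadjusted p under 0.05 (1850 with the block).

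Cck was higher in the KO animal of every couple, antibiotics included. Cck (chromosome 9, 121489824 to 121495694, minus strand) encodes cholecystokinin, which contracts the gallbladder and stimulates pancreatic enzyme secretion. It was 7.93, 10.5 and 8.04 RPKM in untreated KO ileum of couples 1, 2 and 3, against 5.21, 5.50 and 4.80 RPKM in WT ileum, and 7.77 RPKM in KO against 4.41 RPKM in WT ileum under antibiotics. The lowest of the 4 KO levels exceeded the highest of the 4 WT levels, and the ratio of KO to WT stayed between 1.52 and 1.90. Among genes with sound values in each couple, 14% were higher in KO in 4 of 4 couples. The untreated means were 8.81 ± 1.44 RPKM in KO and 5.17 ± 0.352 RPKM in WT ileum (SD, n = 3 each).

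The call for Cck depended on how the littermates were treated in the fit. Its log2 change of 0.66 had an SE of 0.16 and a limma adjusted p of 0.0959 without the couple block, which missed the threshold. With the block the SE was 0.09 and the adjusted p 0.021, and over all 4 couples with the block the log2 change was 0.67 (SE 0.08, adjusted p = 0.0442). The blocked untreated fit called 8.07% of genes higher and 9.52% lower, and the blocked fit of 4 couples called 0.638% higher and 0.596% lower. Without couple 1, 2 or 3 the blocked adjusted p of Cck was 0.0635, 0.0731 and 0.0689.

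**Figure D1:**
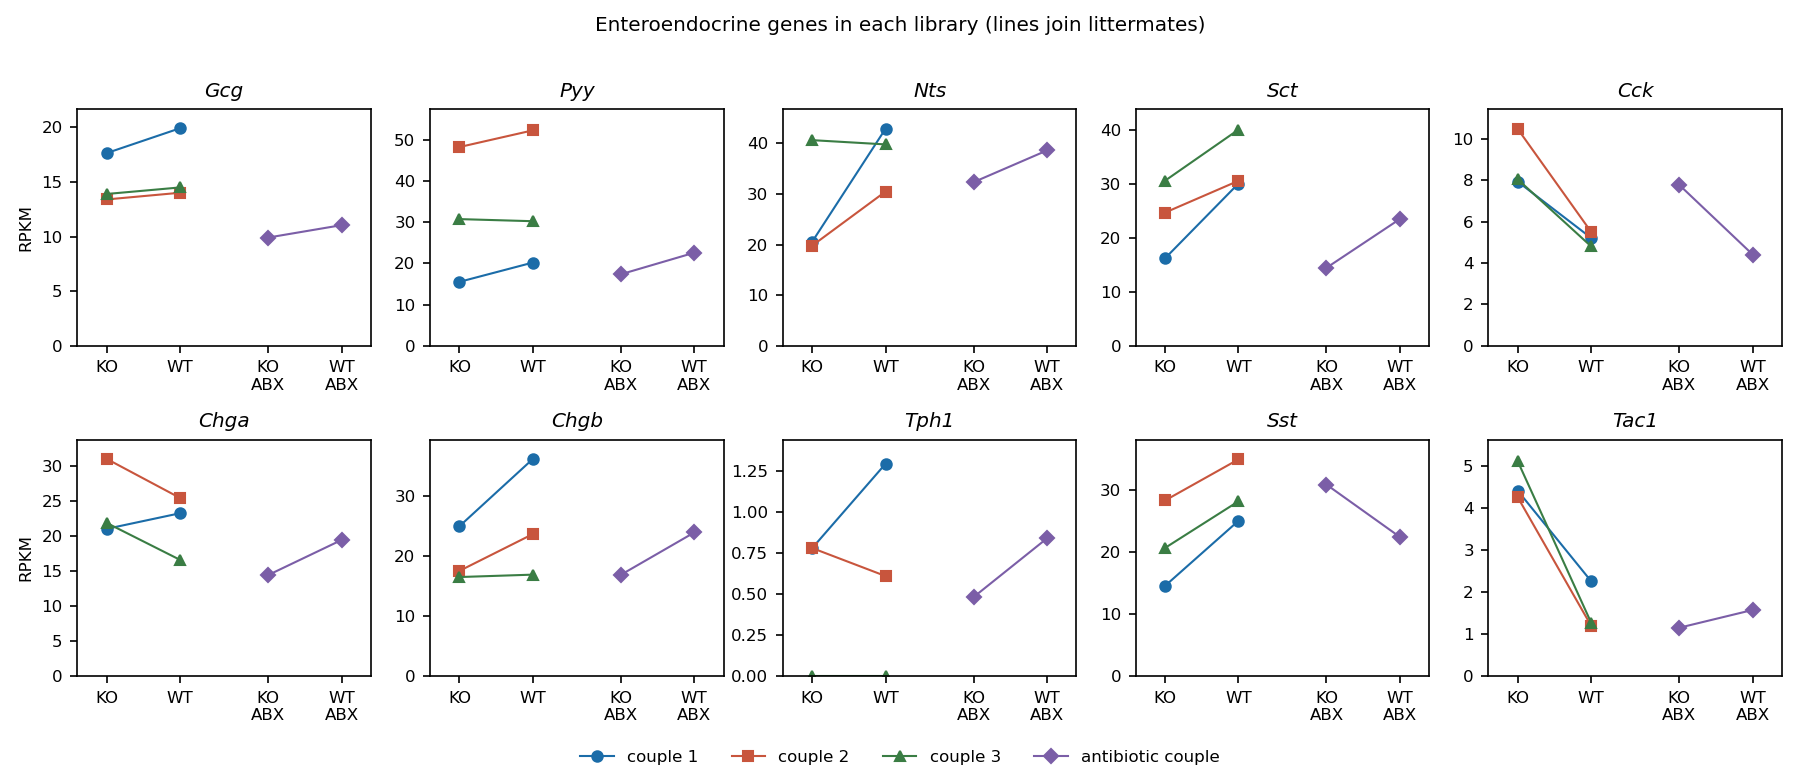
RPKM (y axis, linear, from 0) of the 10 genes in each of the 8 libraries, KO left of WT, with untreated couples on the left of each panel and the antibiotic couple (ABX) on the right; lines join littermates and each point is 1 mouse. Cck slopes down from KO to WT in all 4 couples, and Tac1 does so in the 3 untreated couples but not in the antibiotic couple (1.15 RPKM in KO, 1.57 RPKM in WT).

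Because Cck and Tac1 were the members whose untreated KO and WT levels did not overlap, their start-site sequences are shown. RefSeq windows of 250 bases before the annotated start (GRCm38.p6) were available for all 10 members, with 2 windows each for Pyy and Tph1. The whole window of Cck at chr9:121495695-121495944 (minus strand) follows 5′ to 3′ as the gene reads, with the letters CACGTG and TGCGTCA in capitals.
Cck: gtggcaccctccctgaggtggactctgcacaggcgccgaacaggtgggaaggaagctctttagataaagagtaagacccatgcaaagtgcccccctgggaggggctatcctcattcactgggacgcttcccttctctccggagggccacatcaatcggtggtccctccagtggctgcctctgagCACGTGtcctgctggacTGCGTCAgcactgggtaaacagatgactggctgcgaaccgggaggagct

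The search covered both strands for CACGTG (an E-box), TGACGTCA (the cyclic AMP response element, CRE), its variant TGACGTAA, and TGCGTCA (a CRE-related variant), which do not contain one another. The motifs were chosen after these sequences and the values had been seen. In Cck the first bases of CACGTG and TGCGTCA lay at -66 and -49 from the start. In Tac1 they lay at -61 and -199. Both lie on the plus strand, in the stretches chr6:7554988-7555017 and chr6:7554851-7554880, which are shown in that order with the motif in capitals.
Tac1 E-box: tggggagagtgtCACGTGgctctacaggct
Tac1 CRE-related: ttccctaaaatTGCGTCAtttcgaacacaa

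Of 32851 mouse windows of the same length 6.02% held CACGTG, 1.75% held TGCGTCA and 0.174% held both. The letters were chosen with the members' sequences seen, so these shares are no test of the matches. Among the members Cck and Tac1 held both, and 1 of the windows of Tph1 held TGCGTCA. The full CRE, present in 1.55% of windows, was found in Sst and Chgb, and TGACGTAA, present in 0.447%, in Chga. Those stretches are given for comparison, with the motif in capitals, from chr16:23890874-23890903 (minus strand), chr2:132781559-132781588 (plus strand) and chr12:102554886-102554915 (plus strand).
Sst CRE: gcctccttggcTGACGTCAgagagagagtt
Chgb CRE: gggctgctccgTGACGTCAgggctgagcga
Chga CRE variant: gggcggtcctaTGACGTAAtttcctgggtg
The windows of Gcg, Pyy, Nts and Sct held none of the letters searched. In the GENCODE annotation the Tac1, Chgb, Sst and Nts genes start further upstream than the RefSeq starts used here. The same holds for 1 window each of Pyy and Tph1. The Tac1 E-box, the Chgb and Sst CRE stretches and the Tph1 match lie inside the genes as placed in this text. All positions hold for the RefSeq starts. These matches describe letters and do not show binding.

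The L cell genes Gcg and Pyy were close between littermates. Gcg (chromosome 2, 62474530 to 62483650, minus strand), the proglucagon gene whose products include GLP-1 and GLP-2, was 17.6, 13.4 and 13.9 RPKM in KO ileum of couples 1, 2 and 3, against 19.9, 14.0 and 14.5 RPKM in WT ileum. The antibiotic couple had 9.91 RPKM in KO and 11.0 RPKM in WT ileum, the lowest Gcg levels of all libraries. KO was below WT in 4 of 4 couples, but by little: the ratios ran from 0.886 to 0.959, and the untreated log2 change was -0.09 (SE 0.19, limma adjusted p = 0.872).

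Pyy (chromosome 11, 102106676 to 102107832, minus strand), which encodes peptide YY, varied between couples far more than between genotypes. It was 15.5, 48.2 and 30.7 RPKM in untreated KO ileum of couples 1, 2 and 3, against 20.2, 52.3 and 30.2 RPKM in WT ileum, and 17.3 RPKM in KO against 22.6 RPKM in WT ileum under antibiotics. The couple means spanned a factor of 2.82, the widest span among the members apart from Tph1, which was listed at 0 in a couple. Its ratios of KO to WT ran from 0.768 to 1.02, and the untreated log2 change was -0.15 (SE 0.46, limma adjusted p = 0.918; SE 0.10 with the couple block, adjusted p = 0.319). Couples 1 and 2 belong to 1 set of normalized values, so their difference in Pyy lies within a set. Couple 2 was the only male couple, so litter and sex cannot be told apart in that difference.

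Nts and Sct had lower mean levels in KO ileum without passing the test. Nts (chromosome 10, 102481756 to 102490486, minus strand), the gene of neurotensin, a peptide of N cells released by fat, was 20.6, 19.8 and 40.6 RPKM in KO ileum of couples 1, 2 and 3, against 42.9, 30.5 and 39.8 RPKM in WT ileum. Under antibiotics it was 32.3 RPKM in KO and 38.6 RPKM in WT ileum. The KO library of couple 3 stood at the WT level while those of couples 1 and 2 were lower, so the groups overlapped (log2 change -0.53, SE 0.30, limma adjusted p = 0.442).

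Sct (chromosome 7, 141278330 to 141279133, minus strand) encodes secretin, which stimulates bicarbonate secretion by the pancreas and bile ducts. It was 16.2, 24.7 and 30.7 RPKM in KO ileum of couples 1, 2 and 3, against 30.1, 30.6 and 40.2 RPKM in WT ileum, and 14.5 RPKM in KO against 23.5 RPKM in WT ileum under antibiotics. KO was lower in 4 of 4 couples, with ratios from 0.539 to 0.807, and the untreated groups met only where KO of couple 3 exceeded WT of couples 1 and 2. The log2 change of -0.51 had an SE of 0.25 (limma adjusted p = 0.389) and with the couple block an SE of 0.13 (adjusted p = 0.061). Gcg, Sct and Chgb were lower in KO in 4 of 4 couples, 3 of the 9 members tested, beside 21.1% of the genes with sound values. Among the untreated couples alone 4 members (Gcg, Sct, Chgb and Sst) were lower in KO in 3 of 3, beside 32.4% of tested genes, and Cck and Tac1 were higher in 3 of 3, beside 27.8%; these shares of members are near the background.

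Sst (chromosome 16, 23889573 to 23890958, minus strand), the somatostatin gene, differed in opposite directions with and without antibiotics. It was 14.5, 28.3 and 20.6 RPKM in untreated KO ileum of couples 1, 2 and 3, against 25.0, 34.9 and 28.2 RPKM in WT ileum. Under antibiotics it was 30.9 RPKM in KO and 22.4 RPKM in WT ileum. The untreated log2 change was -0.49 (SE 0.26, limma adjusted p = 0.415; SE 0.11 and adjusted p = 0.0474 with the couple block). The blocked call was lost without couple 1, 2 or 3 (adjusted p = 0.102, 0.0858 and 0.13) and over all 4 couples (log2 change -0.26, SE 0.20, limma adjusted p = 0.434), and the difference between the treatments was not called (0.93, SE 0.52, adjusted p = 0.999; 0.191 with the block).

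**Figure D2:**
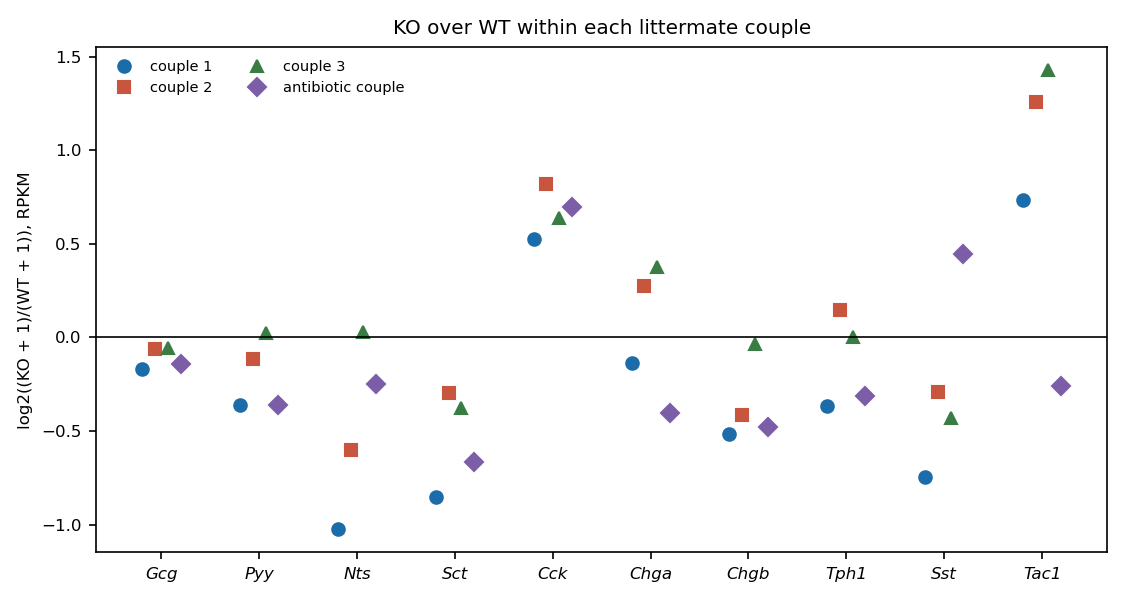
log2((KO + 1)/(WT + 1)) of RPKM (y axis) for each of the 10 genes (x axis), 1 symbol per littermate couple; the line at 0 marks equal levels. All 4 symbols of Cck lie above 0 (0.52 to 0.82), those of Sct lie below 0, and the antibiotic couple stands apart from the untreated couples for Tac1 and Sst.

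The granins, acidic proteins packed in the secretory granules of endocrine cells, did not move together. Chga (chromosome 12, 102554969 to 102565028, plus strand) was 21.0, 31.0 and 21.9 RPKM in KO ileum of couples 1, 2 and 3, against 23.3, 25.5 and 16.6 RPKM in WT ileum. Its order within couples was mixed: KO was higher in couples 2 and 3 and lower in couple 1 and in the antibiotic couple (14.4 RPKM in KO, 19.4 RPKM in WT). The log2 change was 0.17 (SE 0.23, limma adjusted p = 0.781).

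Chgb (chromosome 2, 132781278 to 132795079, plus strand) was 25.0, 17.5 and 16.5 RPKM in KO ileum of couples 1, 2 and 3, against 36.2, 23.6 and 16.9 RPKM in WT ileum. In the antibiotic couple it was 16.9 RPKM in KO and 23.9 RPKM in WT ileum. KO was lower in each couple, by least in couple 3 (ratio 0.976), and the log2 change of -0.32 did not pass the test (SE 0.29, limma adjusted p = 0.661; 0.119 with the block). Over the 9 members tested the median log2 change was -0.15, beside -0.02 over all tested genes.

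Tph1 (chromosome 7, 46644641 to 46672537, minus strand), which encodes the rate-limiting enzyme of serotonin synthesis outside the brain, was near the lower end of the table and was not tested. It was listed at 0.78, 0.78 and 0 RPKM in KO ileum of couples 1, 2 and 3, against 1.29, 0.61 and 0 RPKM in WT ileum. Couple 3 is the set with the fewest genes above 0. Under antibiotics Tph1 was 0.482 RPKM in KO and 0.84 RPKM in WT ileum. Mast cells also make Tph1, and their markers were low: 9 of 11 were under 1 RPKM in all 8 libraries, and their sum was 3.81 to 5.32 RPKM in untreated KO and 3.38 to 6.97 RPKM in untreated WT ileum, a part in Tph1 that was not tested.

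Ranked by level, most members lay close together and Cck and Tac1 lay apart. In KO ileum Pyy (31.5 RPKM), Nts (27.0 RPKM), Chga (24.7 RPKM), Sct (23.9 RPKM), Sst (21.2 RPKM), Chgb (19.7 RPKM) and Gcg (15.0 RPKM) led by mean. In WT ileum the order was Nts (37.7 RPKM), Pyy (34.2 RPKM), Sct (33.6 RPKM), Sst (29.4 RPKM), Chgb (25.6 RPKM), Chga (21.8 RPKM) and Gcg (16.1 RPKM). Neighbours among these WT genes overlapped in their ranges, so their order is not fixed by 3 mice. Cck lay below Gcg and above Tac1 with no overlap in either genotype.

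The summed level of the 10 genes was 144, 199 and 188 RPKM in KO ileum of couples 1, 2 and 3, against 206, 219 and 192 RPKM in WT ileum, and 146 RPKM in KO against 168 RPKM in WT ileum under antibiotics. KO was lower in each couple, by least in couple 3. In whole tissue, fewer endocrine cells and less RNA per cell cannot be told apart. A share of this sum is also higher where the other members are lower, so shares and levels can differ in size of change. The share of Cck was 5.52%, 5.28% and 4.27% in KO ileum of couples 1, 2 and 3 and 5.34% in KO ileum under antibiotics, against 2.52%, 2.51% and 2.49% in untreated WT ileum and 2.62% in WT ileum under antibiotics. The WT shares lay within a narrow range, and each KO share was above it.

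The share of Tac1 was 3.07%, 2.14% and 2.71% in untreated KO ileum of couples 1, 2 and 3, against 1.09%, 0.545% and 0.658% in WT ileum, and 0.788% in KO against 0.933% in WT ileum under antibiotics. Pyy and Gcg took similar shares in both genotypes, with Pyy at 17.1% ± 6.78 in KO and 16.5% ± 7.09 in WT ileum and Gcg at 8.81% ± 3.03 in KO and 7.87% ± 1.65 in WT ileum (SD, n = 3 each). With 3 libraries per group an exact unpaired permutation test cannot go below p = 0.1, and one that keeps littermates paired has a higher limit, so none is given.

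**Figure D3:**
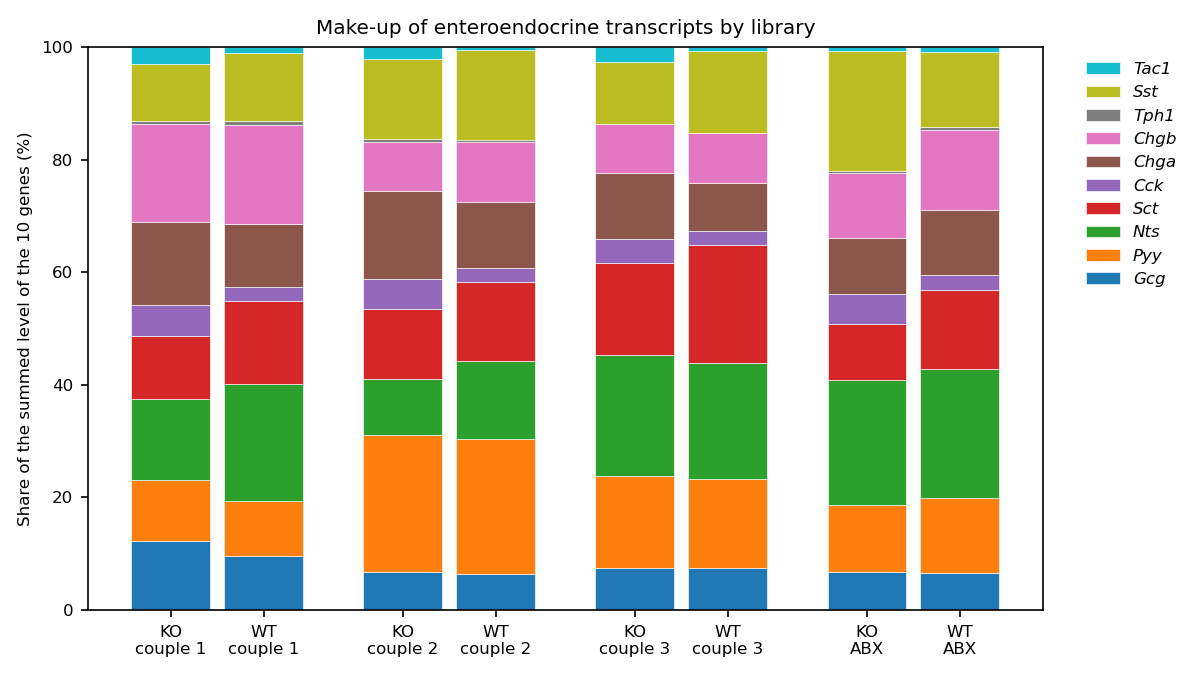
Share (%) of each of the 10 genes in their summed RPKM (y axis, 0 to 100) for the 8 libraries, KO left of WT within each couple and the antibiotic couple (ABX) on the right. The Cck band is wider in each KO bar (4.27% to 5.52%) than in each WT bar (2.49% to 2.62%), and the Pyy band follows the couple, widest in couple 2.

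Among other gut peptides 8 of 15 genes were tested, 0 rose and 1 fell in untreated KO ileum, beside 1.07% and 0.965% of all tested genes. Their median log2 change was -0.32, beside -0.02 over all tested genes. The gene that fell was Fgf15, the bile acid-induced hormone of ileal enterocytes, at 0.0454, 0.455 and 1.57 RPKM in KO ileum of couples 1, 2 and 3, against 39.9, 10.2 and 56.4 RPKM in WT ileum (limma adjusted p = 0.0204). Under antibiotics it was 37.2 RPKM in KO and 18.6 RPKM in WT ileum. The call was lost without KO of couple 1 or 2, or WT of couple 1 or 3. With the couple block 2 genes of this list were higher (Ghrl and Npy) and 3 lower (Fgf15, Guca2a and Guca2b). Of all tested genes that fit called 8.07% higher and 9.52% lower. Without couple 1, 2 or 3 in the blocked fit 1, 0 and 0 were higher and 0, 2 and 2 lower, and over all 4 couples 0 were called in either direction.

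The genes of this list other than Fgf15 are named after their values were seen. Guca2a and Guca2b encode guanylin and uroguanylin, peptides that activate the guanylate cyclase C receptor of the epithelium. Guca2a was 840 ± 264 RPKM in KO and 1650 ± 278 RPKM in WT ileum (SD, n = 3 each; limma adjusted p = 0.199; 0.0177 with the block). Guca2b was 465 ± 164 RPKM in KO and 947 ± 205 RPKM in WT ileum (log2 change -1.07, limma adjusted p = 0.203; 0.024 with the block). Npy, a neuropeptide of the peptide YY family, was 2.73 ± 1.25 RPKM in KO and 1.35 ± 0.444 RPKM in WT ileum (log2 change 0.63, limma adjusted p = 0.298, and 0.0343 with the block). Under antibiotics KO and WT ileum had 1.25 and 2.07 RPKM of Npy, 1300 and 1389 RPKM of Guca2a, and 1043 and 941 RPKM of Guca2b.

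Ghrl encodes ghrelin, a peptide of X/A-like endocrine cells best known from the stomach. It had 4.32, 5.23 and 5.05 RPKM in untreated KO ileum of couples 1, 2 and 3, against 2.93, 1.63 and 1.64 RPKM in WT ileum, with 2.64 RPKM in KO and 1.34 RPKM in WT ileum under antibiotics. KO was higher in each of the 4 couples. Its log2 change of 0.96 (SE 0.20) had a limma adjusted p of 0.0648, and of 0.0372 with the block, which the fit of 4 couples did not keep. Gip, the incretin gene of K cells, was 25.3 ± 5.03 RPKM in KO and 36.0 ± 12.7 RPKM in WT ileum (SD, n = 3 each) and did not pass the test (limma adjusted p = 0.51). Under antibiotics Gip was 51.6 RPKM in KO and 26.6 RPKM in WT ileum.

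Genes of prohormone processing and granule exocytosis had fitted values below 0 for 16 of 17 tested genes, of 24 listed, beside 51.8% of all tested genes. None passed the test without the couple block, and their median log2 change was -0.38. With the block 7 were called lower and 0 higher, beside 9.52% and 8.07% of all tested genes. Without couple 1 or couple 2 the blocked count was 0, without couple 3 it was 1, and over all 4 couples it was 0. The 2 genes of the list with the highest mean levels were Cpe, a carboxypeptidase that trims prohormones, and Vamp2, a vesicle fusion protein. Cpe was 16.3 ± 5.48 RPKM in KO and 22.2 ± 4.37 RPKM in WT ileum, and Vamp2 was 10.4 ± 1.69 RPKM in KO and 12.8 ± 1.54 RPKM in WT ileum (SD, n = 3 each); neither passed the test.

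The genes called with the block were Pcsk1n (limma adjusted p = 0.0363), Scg3 (0.0481), Ptprn2 (0.0421), Syt7 (0.0391), Scg2, Scgn and Ptprn, and they are named after their values were seen. Scg2, a granin relative, was 3.37, 2.06 and 3.33 RPKM in KO ileum of couples 1, 2 and 3, against 6.05, 5.24 and 5.39 RPKM in WT ileum (log2 change -0.76, SE 0.18, limma adjusted p = 0.0974; 0.0262 with the block). Scgn, a calcium sensor of endocrine cells, was 1.50 ± 0.209 RPKM in KO and 2.71 ± 0.136 RPKM in WT ileum (SD, n = 3 each; limma adjusted p = 0.116; 0.0338 with the block). Ptprn, a granule membrane protein, was 0.828 ± 0.108 RPKM in KO and 1.90 ± 0.456 RPKM in WT ileum (limma adjusted p = 0.131; 0.0334 with the block). Without antibiotics every KO level of Scg2, Scgn and Ptprn lay below every WT level, as for 12.1% of all tested genes.

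Granule genes and several members are also expressed by enteric neurons. Of 18 neuron and glia markers 3 passed the filter, and 1 of them fell, beside 0.965% of all tested genes. Prph, a neuronal intermediate filament, fell to 1.24 ± 0.125 RPKM in KO ileum, against 3.29 ± 0.333 RPKM in WT ileum (SD, n = 3 each; log2 change -0.94, SE 0.15, limma adjusted p = 0.0256). Uchl1 was 2.38 ± 0.558 RPKM in KO and 4.48 ± 0.787 RPKM in WT ileum (limma adjusted p = 0.117; 0.0485 with the block). The sum over the list was 7.16 to 8.45 RPKM in untreated KO and 11.8 to 18.0 RPKM in untreated WT ileum, and 13.8 RPKM in KO and 16.0 RPKM in WT ileum under antibiotics, and 0 of the 18 markers were at 0 in all libraries. In couple 3, however, 14 of the 18 were listed at 0 in both littermates, and in the antibiotic couple 9, against 0 in couples 1 and 2, so the sums compare only within a couple. The part of neurons in the granule genes, Chgb, Sst and Tac1 was not tested.

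**Figure D4:**
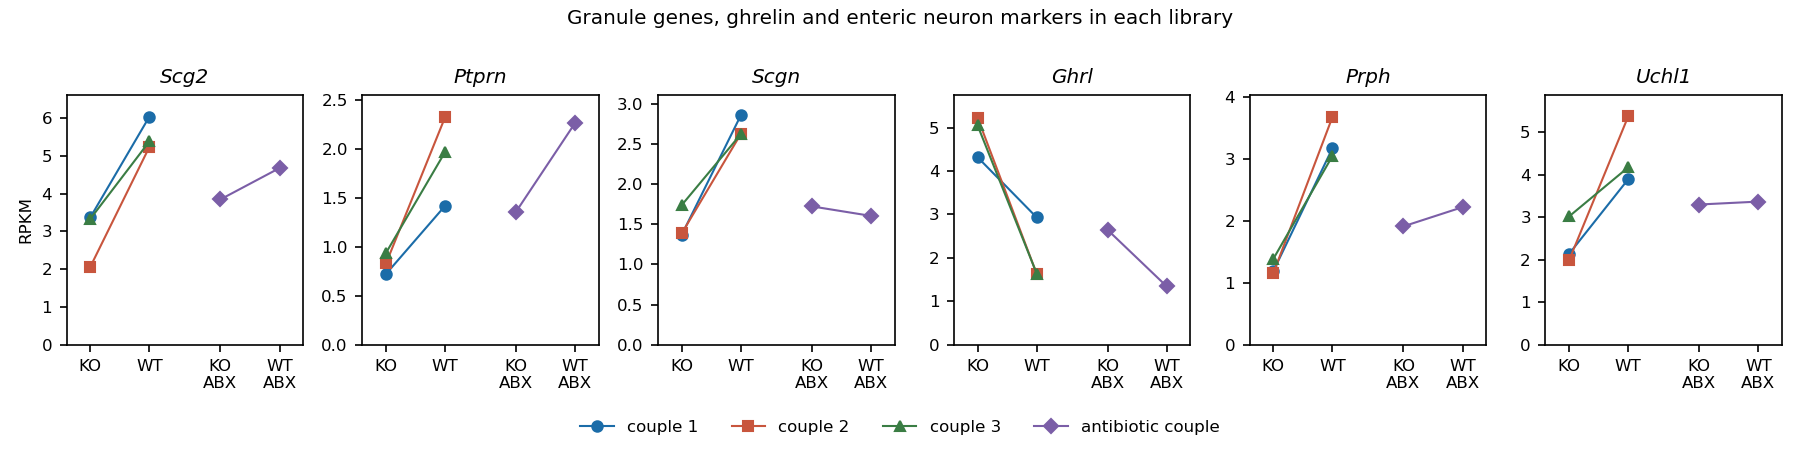
RPKM (y axis, linear, from 0) of 3 granule genes (Scg2, Ptprn, Scgn), ghrelin (Ghrl) and 2 enteric neuron markers (Prph, Uchl1) in each library, KO left of WT, lines joining littermates. The granule and neuron genes lie lower in KO than in WT in the 3 untreated couples, while Ghrl lies higher in KO in all 4 couples.

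Most transcription factors of the endocrine lineage had very low values. Of 23 listed, 16 stayed under 1 RPKM in all 8 libraries, and 6 were tested, with 0 higher and 0 lower (median log2 change -0.18; also 0 with the block). Neurog3, the factor that commits progenitors to the endocrine fate, was listed at 0 in couple 3 and the antibiotic couple, where fewer genes were above 0, and at most at 0.231 RPKM elsewhere. Atoh1, the factor of all secretory lineages, was 9.71 ± 3.98 RPKM in KO and 10.6 ± 4.33 RPKM in WT ileum, and Foxa1 was 6.41 ± 0.432 RPKM in KO and 7.41 ± 1.10 RPKM in WT ileum (SD, n = 3 each).

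Among genes of serotonin synthesis and removal 8 of 11 were tested, and 1 rose and 0 fell, beside 1.07% and 0.965% of all tested genes. With the couple block 1 was higher and 2 lower, beside 8.07% and 9.52% of all tested genes. Those lower were Maoa and Maob, the enzymes that break down serotonin and other amines (limma adjusted p = 0.0375 and 0.0407 with the block, 0.529 and 0.114 without). Without couple 1, 2 or 3 in the blocked fit 0, 1 and 0 were lower, and over all 4 couples 0. Gch1 acts in the synthesis of tetrahydrobiopterin, a cofactor of tryptophan hydroxylase among other enzymes. It rose to 10.6 ± 1.25 RPKM in KO ileum, against 4.99 ± 0.477 RPKM in WT ileum (SD, n = 3 each, log2 change 0.95, SE 0.15, limma adjusted p = 0.026). It was 4.27 RPKM in KO and 5.56 RPKM in WT ileum under antibiotics. The call was lost whichever 1 of the 6 untreated libraries was left out. Maoa, Maob and Slc6a4 are named after their values were seen. Slc6a4, the serotonin transporter of enterocytes, was 26.1 ± 2.59 RPKM in KO and 24.1 ± 2.01 RPKM in WT ileum.

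Sensors and receptors were mostly below the filter. Of 20 nutrient and bile acid sensor genes 3 were tested and 0 were called, with a median log2 change of -0.04. Slc5a1, the sodium-glucose transporter through which glucose triggers incretin release, was 280.5 ± 29.9 RPKM in KO and 291 ± 44.7 RPKM in WT ileum, and Lpar5 was 14.6 ± 5.64 RPKM in KO and 15.7 ± 4.61 RPKM in WT ileum (SD, n = 3 each). Of 28 genes in the list of hormone receptors and hormone clearance 3 were tested and 0 were called (median -0.30). Dpp4, the peptidase that inactivates GLP-1, was 114 ± 34.8 RPKM in KO and 140 ± 33.3 RPKM in WT ileum, and Sort1, a sorting receptor that binds neurotensin, was 19.3 ± 1.66 RPKM in KO and 20.4 ± 4.03 RPKM in WT ileum.

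**Figure D5:**
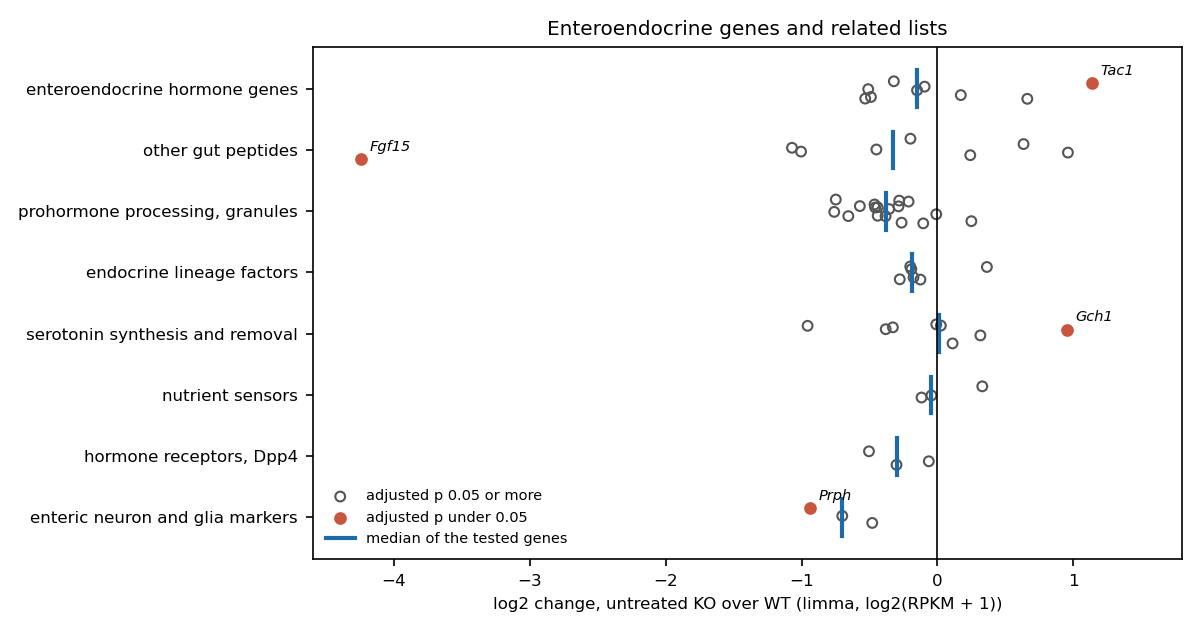
log2 change of untreated KO over WT (x axis, limma on log2(RPKM + 1)) for the tested genes of the hormone list, the related pathway lists and the neuron and glia markers (rows), without the markers of other cells; filled points have an adjusted p under 0.05, open points do not, and blue bars are medians. Tac1, Gch1, Fgf15 and Prph are the filled points, and 16 of 17 genes of prohormone processing lie below 0 without any being called.

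Markers of other cells of the tissue are given for untreated mice. Of 12 enterocyte markers all had fitted values below 0, beside 51.8% of all tested genes. Of these markers 1 was called lower (Lct) and 9 with the couple block, beside 0.965% and 9.52% of all tested genes. Their sum was 9719 to 18567 RPKM in KO and 22842 to 31621 RPKM in WT ileum. The summed goblet cell markers were 3196 to 5079 RPKM in KO and 4325 to 6445 RPKM in WT ileum. Of 8 goblet markers 4 had fitted values above 0 and 4 below, with 0 called. With the block 1 was higher (Spink4) and 1 lower (Fcgbp), beside 8.07% and 9.52% of all tested genes. Paneth cell markers summed to 5733 to 12940 RPKM in KO and 4011 to 10622 RPKM in WT ileum. All 8 had fitted values above 0 (median log2 change 0.39), beside 5741 of 11911 tested genes. Of these 8 markers 0 were called, and 3 were higher with the block, beside 8.07% of all tested genes. Tuft cell markers summed to 2.35 to 5.32 RPKM in KO and 1.01 to 2.75 RPKM in WT ileum. Only Alox5ap of these 8 was tested (2.75 ± 0.535 RPKM in KO, 1.22 ± 0.275 RPKM in WT ileum), and it was called only with the block. In couple 3 the other 7 were at 0 in both littermates. Smooth muscle markers summed to 397 to 658 RPKM in KO and 471 to 739 RPKM in WT ileum. Pancreas markers, fixed because islets also make Gcg and Sst, summed to at most 1.88 RPKM in KO and 19.1 RPKM in WT ileum. The high value was that of WT of couple 1, where Prss2 had 6.53 RPKM but Ins1 only 0.0602 RPKM. Without that library the log2 change of Gcg was 0.06 and that of Sst -0.59. The part of these cells in the members' levels was not tested.

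Genes whose pattern was most like that of a member were sought by the correlation of log2 levels over the 8 libraries after the couple mean was removed, which leaves 4 independent differences. For Tac1 they were Pdcd10 (r = 1.00), Sccpdh (r = 0.999) and Psmc6 (r = 0.999). For Chga they were Lias (r = 0.998), Gadd45a (r = 0.995) and Mvb12a (r = 0.993). With 4 differences and 11520 genes such values are a description only.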

How the data were processed

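One library per mouse was analysed from the authors' single table of 41128 gene symbols. The deposited values carry no unit and were taken as RPKM (reads scaled by library size and gene length). Per the series' design text, reads from HiSeq or Ion Proton sequencers were mapped to GRCm38 (annotation 76) with CLC Genomics Workbench 7.5. For the counting rule, the strand setting and the normalization the sources used here give nothing. The columns of couples 1 and 2 held identical sorted values, which scaling by library size and gene length does not give. Those libraries had therefore been set to a common distribution. In couple 3, 96.5% of the distinct KO values recurred in WT, and in the antibiotic couple 90.8%. Couple 3 and the antibiotic couple shared no value with couples 1 and 2. Depth is also unknown, so levels are compared between couples only as a description. In the WT antibiotic column 423 genes had faulty values, and no member was among them. Of these, 376 were shared with another gene, 45 were listed at 0 beside a littermate at 1 or more, and 2 were over 3 log2 units low. They were left out of the contrast between treatments (11520 genes). The blocked fit of 4 couples kept those that passed the filter (11911 genes tested), so its adjusted p values include faulty genes.

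Genes with at least 1 RPKM in at least 3 of the 8 libraries were tested on log2(RPKM + 1) with limma 3.58.1 (trend) in R 4.3.3, with Benjamini-Hochberg adjustment over all of them and a threshold of 0.05. No couple block was used in the first fit. The labels' couples mark shared litters, and the deviations of littermates from the group means correlated at 0.615, 0.632 and 0.526 over genes, so blocked values are printed where they change a call of a member or of a related list. The difference of genotype effects between treatments was a contrast of 4 group means. All 10 members are described; of each related list the called genes are named, or else the 2 with the highest mean; other genes of these lists are named after their values were seen. The members and lists were chosen with earlier results of these data known. Start-site sequences come from RefSeq (GRCm38.p6), gene positions from GENCODE M21. The fit was tested on simulated data.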

Additional observations from a re-analysis of the deposited data

How the results depend on the processing

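The couple pairing bore most on the calls. With the couple as a replicate block, 2 members were higher (Cck and Tac1) and 1 lower (Sst), with 961 genes higher and 1134 lower in all. Over all 4 couples with the block, 76 genes were higher and 71 lower. Testing every gene regardless of level gave 0 members higher, and 7 genes higher and 4 lower in all. A filter of 5 RPKM left Tac1 untested, with 0 members higher. Leaving out 1 library or 1 couple gave 0 to 1 members higher and 0 lower. Without 1 library 38 to 71 genes were higher and 25 to 68 lower, without 1 couple 0 and 0, and without couple 1, 2 or 3 in the blocked fit 104, 215 and 265 were higher and 94, 231 and 290 lower. Cftr stayed below 0, at -1.59 to -1.40 with 1 library or couple left out; with every gene tested it was -1.50 (limma adjusted p = 0.0751), and the adjusted p was 0.107, 0.0747 and 0.164 without couple 1, 2 or 3 in the unblocked fit.

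Cck was above 0 in 20 of 20 alternatives (0.54 to 0.75) and Tac1 in 19 of 19 (0.79 to 1.54), and Sct, Nts, Chgb and Sst were below 0 in 20 of 20 each. With 1 library or couple left out, the log2 change crossed 0 for Gcg (-0.21 to 0.057), Pyy (-0.52 to 0.27) and Chga (-0.0032 to 0.33). The genotype difference under antibiotics minus the untreated one was called for 0 members in 12 alternatives. With 1 library left out it crossed 0 for Gcg (-0.20 to 0.067), Pyy (-0.63 to 0.16), Sct (-0.40 to 0.041), Cck (-0.027 to 0.15) and Chgb (-0.43 to 0.094). It stayed below 0 for Tac1 and Chga and above 0 for Sst and Nts. The cause of these changes was not tested. Read depth is unknown, so the precision of low values such as those of Tph1 cannot be given.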
